A study of Mus musculus with 3 samples.

Results

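The ligands and receptors of the tumor necrosis factor (TNF) superfamily, apart from RANK, its ligand RL, osteoprotegerin and Tnfrsf26, were followed in mammary tumor cultures stimulated with RL. They were chosen by gene family, with earlier results of these data known, and comprise 42 genes, 17 ligands and 25 receptors. The array carried probes for 41 of them, and 26 passed the detection filter. Of all 36799 genes and transcripts with a probe, 21743 passed and were tested. The ligands are mostly membrane-anchored trimers that can be shed, and they bind receptors with cysteine-rich repeats. Some receptors with a death domain can assemble FADD, TRADD and caspase-8 and trigger apoptosis. Receptors without a death domain mostly recruit TRAF adaptors and activate NF-κB, an output that is not theirs alone. RANK itself belongs to the second kind, and in the mammary gland it relays the proliferative signal of progesterone to epithelial cells, while several of its relatives act mainly between lymphocytes and antigen-presenting cells.

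The cells came from primary mammary tumors of 3 mmtv-PyMT mice, here called tumors 1, 2 and 3, in which the mouse mammary tumor virus promoter drives the polyoma middle T antigen in the mammary epithelium. For each tumor, 1 culture received RL for 24 h and 1 control culture did not, both in DMEM F12 with serum, cholera toxin, insulin and EGF. The labels give the RL dose as 1000 µg/ml and the methods of the study as 1 µg/mL, and the age and sex of the mice and the strain of these tumors are not given in the labels. RNA of both cultures of a tumor was hybridized on 1 two-color Agilent array, with RL in Cy3 and control in Cy5 for tumors 1 and 3 and the reverse for tumor 2. These dye orders are those of the labels. The methods of the study describe dye swaps for every sample, whereas each tumor has 1 array and 1 dye order here, so what is said of dye order rests on the labels. All 3 arrays shared 1 slide and 1 scan, and each tumor had 1 array, so the number of arrays limits the precision. The share of probes well above background ranged over the channels from 54.6% to 56.2%. Ratios are given as log2 of RL over control. Across 21721 genes, these ratios had a Pearson's r of 0.453 between tumors 1 and 3, −0.112 between tumors 1 and 2 and −0.108 between tumors 2 and 3 (genes are not independent replicates). The arrays with the same dye order were thus the more alike, and in every comparison of tumor 2 with the others, tumor and dye order cannot be told apart.

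The first question was which members the cultures expressed. All 26 members tested were well above background in all 6 channels. They comprised 8 of the 17 ligands, 5 of the 7 receptors with a death domain, 11 of the 16 receptors without one and both decoy receptors, which bind ligand without signaling death. The ligands were Tnf, Lta, Ltb, Tnfsf9, Tnfsf10, Tnfsf12, Tnfsf15 and Eda. A further 9 members were well above background in 0 of 6 channels. These were the ligands Tnfsf4, Tnfsf8, Tnfsf14, Fasl, Cd70 and Cd40lg, known mainly from lymphocytes and antigen-presenting cells, and the receptors Tnfrsf8, Cd27 and Tnfrsf17, known from activated lymphocytes, T cells and plasma cells. Another 6 members were detected in part, namely the ligands Tnfsf13b and Tnfsf18 and the receptors Ngfr, Edar, Tnfrsf13c and Cd40. Tnfsf13 was matched by no probe. A member can thus lie below detection in these cultures, but no member was detected in all 3 tumors with RL and not in control, or the reverse.

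**Figure D1:**
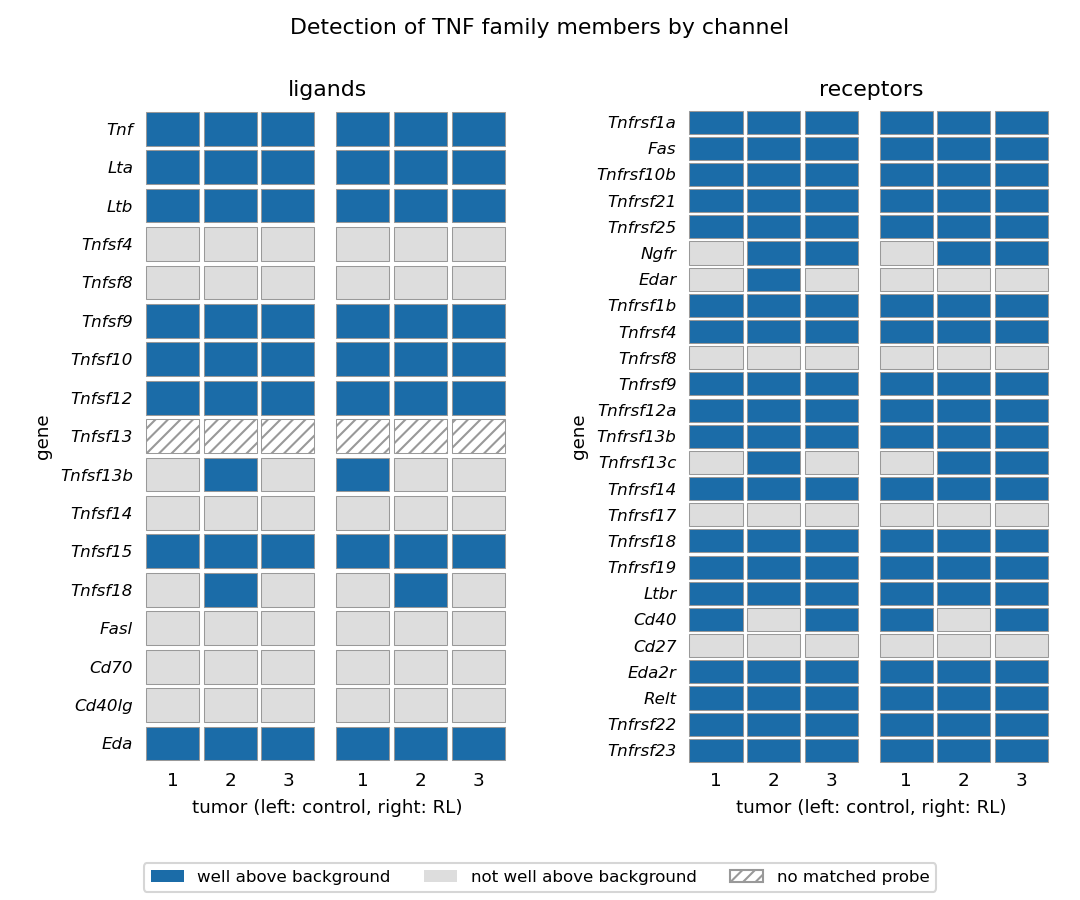
Each square is 1 channel of 1 tumor for the best detected probe of each of the 42 members, control cultures on the left and RL cultures on the right of each panel. The 26 members tested are filled in all 6 channels, 9 members are empty in all of them, and Cd40 is empty in tumor 2 in both conditions.

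Several ligands and receptors that bind each other were detected together. Tnf was detected with its receptors Tnfrsf1a and Tnfrsf1b, Lta and Ltb with their receptor Ltbr, Tnfsf9 with Tnfrsf9, Tnfsf10 (TRAIL) with Tnfrsf10b, Tnfsf12 (TWEAK) with Tnfrsf12a, Tnfsf15 with Tnfrsf25, and Eda with Eda2r. Some of these probes were close to background. In the control culture of tumor 1, the normalized log2 intensity was 6.15 for Tnfsf15, 6.39 for Eda2r, 6.60 for Eda and 6.63 for Lta. Tnfsf14, well above background in 0 channels, had 6.26 there. The second probes of Eda and Eda2r did not pass the filter. Other receptors were detected in all 6 channels while a ligand of theirs was detected in 0, namely Fas without Fasl and Tnfrsf4 without Tnfsf4. Tnfrsf14 was detected without Tnfsf14 but together with Lta, which also binds it. Transcripts of ligands made by cells outside these cultures, or ligand protein in the serum of the medium, were not measured.

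The second question was which members differed between RL and control cultures. With limma and adjustment over all genes, 0 of the 26 members were past an adjusted p of 0.05 in either direction. Over all 21743 genes and transcripts, this rule called 1 higher (0.0046%) and 5 lower (0.023%) with RL. At an unadjusted p under 0.05, limma placed 3 members higher (Fas, Ltb and Tnf) and 0 lower, beside 3.5% of all genes higher and 3.58% lower. By rank product, with a proportion of false positives (pfp) under 0.05, 1 member (Fas) was higher and 0 were lower, beside 0.17% higher and 0.235% lower over all genes. Adding the dye to the limma model, which gives tumor 2 as much weight as tumors 1 and 3 together, placed 2 members (Ltb and Fas) past the same adjusted threshold above 0 and 0 below, beside 0.548% of all genes higher and 0.709% lower. This fit has 1 residual degree of freedom per gene, so its p-values rest largely on the spread pooled over genes. Fas, Ltb and Tnfsf9 were the 3 members with ratios above 0 in all 3 tumors, and Lta, Tnfrsf1a and Tnfrsf19 the 3 with ratios below 0 in all 3, against 14.1% and 13.6% of all genes.

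The median of the mean log2 ratios of the members was −0.0024, beside −0.0019 over all genes tested. The medians of the members in tumors 1, 2 and 3 were −0.02, 0.05 and 0.0092, and those of all genes −0.0081, 0.0086 and −0.0059. The mean was above 0 for 12 members and below 0 for 14. The mean ratios ran from −0.16 for Tnfrsf19 to 0.39 for Fas. The median SD over the 3 tumors was 0.155 for the members, beside 0.116 over all genes. In bulk RNA such as this, fewer cells of a type and less RNA per cell cannot be told apart.

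**Figure D2:**
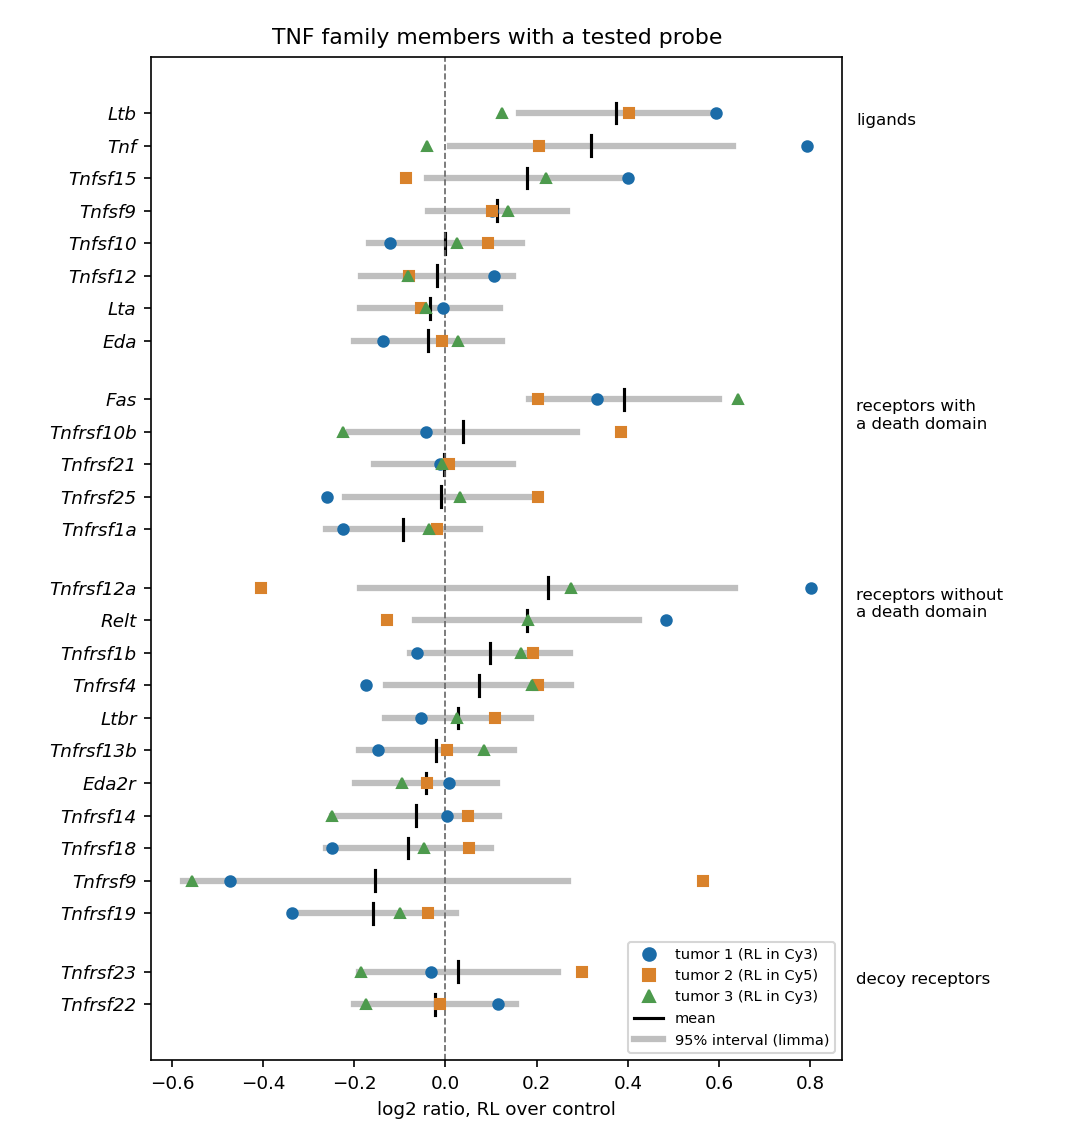
Points are the log2 ratios of RL over control of the 26 members tested in tumors 1, 2 and 3, the black line is their mean and the grey bar the 95% confidence interval from limma, grouped by role and ordered by mean. Fas and Ltb have all 3 points above 0 and means of 0.39 and 0.37, while Tnfrsf9 and Tnfrsf12a have tumor 2 on the other side of 0 from tumors 1 and 3.

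The promoters of Fas, Ltb and Tnf, the 3 members with an unadjusted p under 0.05, are shown because NF-κB, the factor downstream of RANK, reads sequence motifs near start sites. Each window is from RefSeq and runs from 250 bases before the start of the gene to 50 bases after it. Capitals mark the κB consensus (both strands), TATAAA (sense strand) and TGANTCA (both strands), the letters of an AP-1 site.
Fas promoter, GRCm38.p6, chr19:34290409-34290708, plus strand: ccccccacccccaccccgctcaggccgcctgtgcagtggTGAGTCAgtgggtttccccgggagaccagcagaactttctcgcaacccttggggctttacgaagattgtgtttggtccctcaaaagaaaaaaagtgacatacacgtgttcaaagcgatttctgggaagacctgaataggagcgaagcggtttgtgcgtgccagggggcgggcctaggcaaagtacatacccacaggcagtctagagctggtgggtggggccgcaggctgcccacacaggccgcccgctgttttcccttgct
Ltb promoter, GRCm38.p6, chr17:35194257-35194556, plus strand: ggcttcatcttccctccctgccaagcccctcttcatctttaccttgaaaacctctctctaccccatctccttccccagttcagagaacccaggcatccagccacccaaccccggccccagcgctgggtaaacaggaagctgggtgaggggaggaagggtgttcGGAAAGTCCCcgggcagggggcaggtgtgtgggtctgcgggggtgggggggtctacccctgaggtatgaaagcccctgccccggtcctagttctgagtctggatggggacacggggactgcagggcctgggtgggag
Tnf promoter, GRCm38.p6, chr17:35201958-35202257, minus strand: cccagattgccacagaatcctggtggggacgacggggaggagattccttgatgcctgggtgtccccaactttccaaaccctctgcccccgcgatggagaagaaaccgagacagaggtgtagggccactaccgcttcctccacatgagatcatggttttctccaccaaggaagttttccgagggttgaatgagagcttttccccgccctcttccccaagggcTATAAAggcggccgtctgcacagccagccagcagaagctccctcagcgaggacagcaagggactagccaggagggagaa
The Ltb window held 1 κB match, from base −87 to −78 relative to the start. The Tnf window held TATAAA from base −29 to −24 and no κB match, and the Fas window held TGANTCA from base −211 to −205 and no κB match. Among the 34 members with a window in the table, 3 held a κB match (Ltb, Tnfrsf8 and Tnfrsf9), in 7.89% of their 38 windows. The share of all 32851 windows was 4.51%, and for TATAAA and TGANTCA the shares were 8.32% and 7.81% of all windows and 13.2% and 18.4% of those of the members. Sequence farther from the start was not searched, and a match is a run of letters and not a measured binding site.

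Fas is the death receptor bound by Fas ligand. Its normalized log2 intensity in the control cultures of tumors 1, 2 and 3 was 8.72, 10.43 and 8.68, and in the RL cultures 9.06, 10.63 and 9.32. The RL culture was thus the brighter one in each tumor, and both cultures of tumor 2 lay above all cultures of tumors 1 and 3. The ratios were 0.33, 0.20 and 0.64, with a mean of 0.39 (SE 0.09, 95% confidence interval 0.18 to 0.60). The adjusted p was 0.343 with limma and 0.0151 with a dye term, and the pfp was 0.0468. Under 8 versions of the processing, the adjusted p of Fas with a dye term ran from 0.00825 to 0.502. It was 0.0818 without spatial loess and 0.168 without background correction. The mean ratio was between 0.27 and 0.49 whichever tumor was left out.

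Ltb encodes lymphotoxin-β, which joins lymphotoxin-α in a membrane-bound trimer and signals through Ltbr. Its log2 intensity in the control cultures was 6.67, 6.86 and 7.47, and in the RL cultures 7.27, 7.26 and 7.59. Every RL culture was brighter than its control, by most in tumor 1 and by least in tumor 3, and the highest control was brighter than the RL cultures of the other tumors. The ratios were 0.59, 0.40 and 0.12, with a mean of 0.37 (SE 0.09, 95% confidence interval 0.16 to 0.59). The adjusted p was 0.392 with limma and 0.0108 with a dye term, and the pfp was 0.239. This probe was dim. In tumor 1 the spot intensity in the RL channel was 95 over a local background of 30, and in the control channel 123 over 71. The offset used in background correction compresses ratios of such dim probes, and with the processed signals of the scanner software the ratio of Ltb in the dye-term fit was 0.73 with an adjusted p of 0.550.

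Tnf, the founding cytokine of the family, was less uniform. Its log2 intensity was 7.30, 7.70 and 9.05 in the control cultures and 8.10, 7.90 and 9.01 in the RL cultures of tumors 1, 2 and 3. The RL culture was clearly brighter in tumor 1, slightly so in tumor 2 and not in tumor 3, whose cultures were both brighter than those of the other tumors. The ratios were 0.79, 0.21 and −0.04, with a mean of 0.32 (SE 0.14, adjusted p = 0.700 with limma and 0.205 with a dye term). Without tumor 1 the mean ratio of Tnf was 0.08. Macrophages are a known source of Tnf. All 9 macrophage markers were tested, and 0 were called in either fit. Their median ratio in tumors 1, 2 and 3 was −0.09, −0.03 and −0.02. The median of their mean ratios was 0.03, with 5 means above 0 and 4 below. In tumor 1, where Tnf had its largest ratio, 7 of the 9 were below 0. The 2 above 0 there were Ptprc, a pan-leukocyte gene, at 0.19, which was not well above background in the control culture of that tumor, and Cd14, a co-receptor for bacterial lipopolysaccharide that epithelial cells can also express, at 0.56. The summed normalized level of the list was 25579, 14922 and 16571 in the control cultures and 33540, 14651 and 16259 in the RL cultures. Cd14 was its brightest gene, with a log2 intensity of 14.13 in control and 14.69 with RL in tumor 1, so the sum there follows Cd14 and not most of the markers. The part of these cells in the Tnf ratio was not tested.

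**Figure D3:**
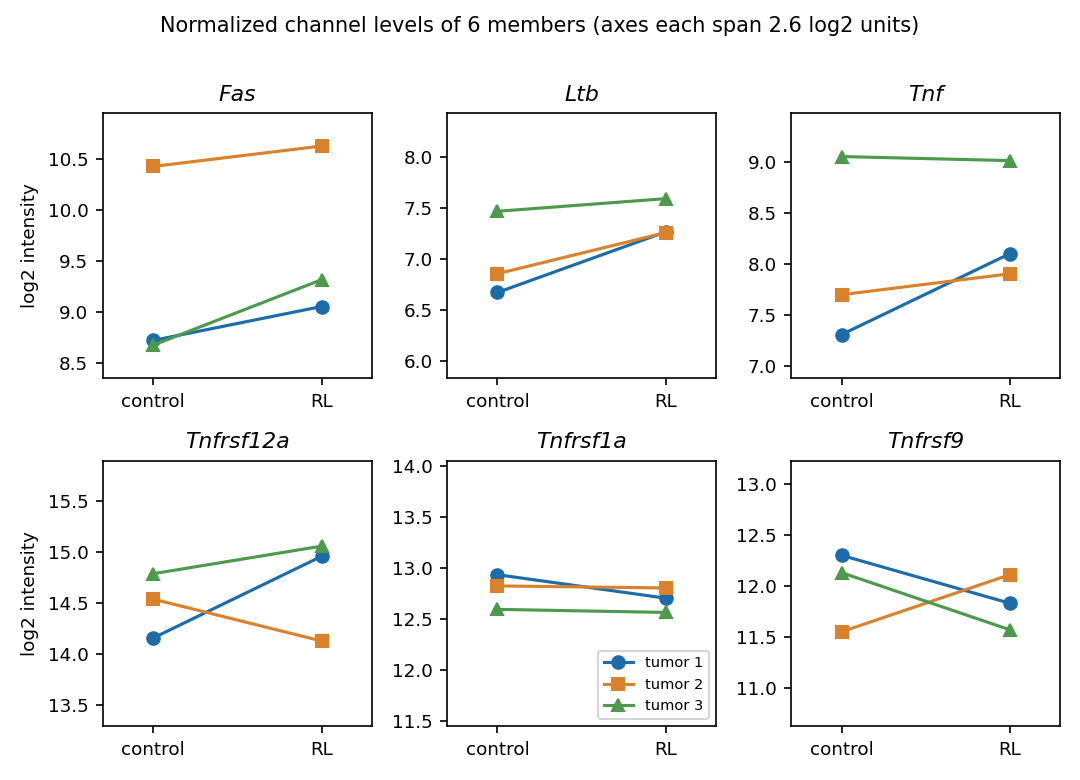
Lines join the normalized log2 intensity of the control and the RL culture of each tumor for the probes of 6 members, with axes of equal span. The Fas and Ltb lines go up in all 3 tumors, the Tnf line goes up by 0.79 in tumor 1 and lies level in tumor 3, and the Tnfrsf12a and Tnfrsf9 lines go in opposite directions in tumor 2 and in tumors 1 and 3.

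Lta, Tnf and Ltb lie next to each other on chromosome 17, with no protein-coding gene between them in the RefSeq table. Lta, which encodes lymphotoxin-α, had ratios of −0.0050, −0.05 and −0.04, with a mean of −0.03 (SE 0.07, 95% confidence interval −0.19 to 0.12). The Lta ratios were near 0 in all 3 tumors, while its neighbours Tnf and Ltb had their largest ratios in tumor 1. The Lta probe was dim, with a spot intensity of 53.2 over a local background of 32.15 in the RL channel of tumor 1. The offset compresses ratios of such probes, so a ratio near 0 does not show that Lta was unchanged. The difference between the 3 genes was not tested. In all, 22 members lie in 9 groups with at most 2 other protein-coding genes between them. In the group of Tnfsf9, Cd70 and Tnfsf14, Tnfsf9 was the sole member detected, and in the group of Tnfsf4, Tnfsf18 and Fasl none was detected in all channels. Cd27, Ltbr and Tnfrsf1a lie on chromosome 6 with 1 other protein-coding gene between each and the next. Ltbr and Tnfrsf1a were detected in all channels, whereas Cd27 was detected in 0.

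Among the other ligands, Tnfsf9, a costimulatory ligand of Tnfrsf9, had ratios of 0.10, 0.10 and 0.14, the most even of the members above 0 in all 3 tumors. Its mean was 0.11 (SE 0.07, 95% confidence interval −0.04 to 0.27, adjusted p = 0.795 with limma), and the mean was −0.023 when the arrays were centred on their median without loess, which moved the median of all genes to −0.11. The remaining ligands tested had mean ratios from −0.04 for Eda, the ectodysplasin ligand of skin appendages, to 0.18 for Tnfsf15, a ligand of Tnfrsf25. Tnfsf10, which triggers death through Tnfrsf10b, had a mean of −0.0008 (95% confidence interval −0.17 to 0.17), and Tnfsf12, the ligand of Tnfrsf12a, one of −0.02 (95% confidence interval −0.19 to 0.15). The 8 ligands had a median of 0.06.

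Receptors with a death domain other than Fas had mean ratios between −0.09 and 0.04. Tnfrsf1a, the widely expressed TNF receptor, had ratios of −0.23, −0.02 and −0.04, with a mean of −0.09 (SE 0.07, 95% confidence interval −0.26 to 0.08), or −0.03 without tumor 1. It was the sole receptor with a death domain below 0 in all 3 tumors, and its second probe had ratios of 0.04, −0.10 and −0.05. Tnfrsf10b, the TRAIL death receptor of mice, had ratios of −0.04, 0.39 and −0.23, with a mean of 0.04 (SE 0.11, adjusted p = 0.962). Here tumor 2 stood above 0 and the other tumors below it. Under that median centring the mean of Tnfrsf10b was −0.13, beside −0.11 for the median of all genes. Tnfrsf21 had the narrowest range of ratios of the members tested, with ratios of −0.01, 0.0071 and −0.0078. Tnfrsf25, the receptor of Tnfsf15, ranged from −0.26 in tumor 1 to 0.20 in tumor 2.

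Among the 11 receptors without a death domain, none was called in either fit, and their median was −0.02. Tnfrsf1b, the TNF receptor typical of immune and endothelial cells, had ratios of −0.06, 0.19 and 0.17, with a mean of 0.10 (SE 0.08, 95% confidence interval −0.08 to 0.27). The mean of Tnfrsf1b was 0.18 without tumor 1, 0.05 without tumor 2 and 0.06 without tumor 3. Under median centring it was 0.0056, where the median of all genes was −0.11. Ltbr, which receives the lymphotoxin signal, had ratios of −0.05, 0.11 and 0.03, with a mean of 0.03 (SE 0.07, 95% confidence interval −0.13 to 0.19). Under median centring the mean of Ltbr was −0.13, beside that median of −0.11 over all genes. Mean ratios of the receptors of Tnf and Ltb thus ran from −0.09 for Tnfrsf1a to 0.10 for Tnfrsf1b, with signs that differed between tumors for Tnfrsf1b and Ltbr. Tnfrsf19, expressed in embryonic skin and brain, had ratios of −0.34, −0.04 and −0.10, with a mean of −0.16 (SE 0.08, 95% confidence interval −0.34 to 0.02, adjusted p = 0.755), or −0.07 without tumor 1. Its control level differed by tumor, with log2 intensities of 8.58, 7.04 and 7.31. Cd40, a receptor of antigen-presenting cells, did not pass the filter, since it was not well above background in either channel of tumor 2. Its ratios were 0.05, 0.05 and 0.10, and its log2 intensity in tumor 3 was 7.07 in control and 7.16 with RL.

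Tnfrsf12a is the receptor of TWEAK. Its log2 intensity was 14.16, 14.54 and 14.79 in control and 14.96, 14.13 and 15.06 with RL. The ratios were 0.80, −0.40 and 0.27, with a mean of 0.22 (SE 0.18, adjusted p = 0.862) and 0.07 in the dye-term fit (adjusted p = 0.907). Tumors 1 and 3, with RL in Cy3, were above 0 and tumor 2, with RL in Cy5, was below. Tnfrsf9, a costimulatory receptor of T cells, was singled out after its values were seen, because it showed the opposite order, with ratios of −0.47, 0.57 and −0.56. In terms of dye, its probe was brighter in Cy5 than in Cy3 in all 3 tumors, by a log2 difference of 0.54 in the dye-term fit. The RL term of that fit was 0.03 (adjusted p = 0.978). A second probe of Tnfrsf9 had ratios of −0.10, 0.03 and −0.14. It was far dimmer, with a log2 intensity of 6.70 in the control culture of tumor 1, where the probe used had 12.30. Which of the 2 better reflects the Tnfrsf9 transcript was not tested. Cy5 was the brighter dye in all 3 tumors for 5 members and Cy3 for 3 members, against 19.5% and 15.2% of all genes.

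The number of members called differed with the tumor left out. Without tumor 2, limma called 6 members higher (Tnfrsf12a, Fas, Ltb, Tnf, Relt and Tnfsf15) and 1 lower (Tnfrsf9), but 544 genes were then called higher and 909 lower over the whole array, and in tumors 1 and 3 alone RL and Cy3 cannot be told apart. Relt and Tnfsf15 were named here after their values were seen. Without tumor 1 and without tumor 3, 0 members were called. Fas, Ltb and Tnf were above 0 in tumor 2 as well, at 0.20, 0.40 and 0.21, whereas Tnfrsf12a, Relt and Tnfsf15 were below 0 there, at −0.40, −0.13 and −0.09.

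**Figure D4:**
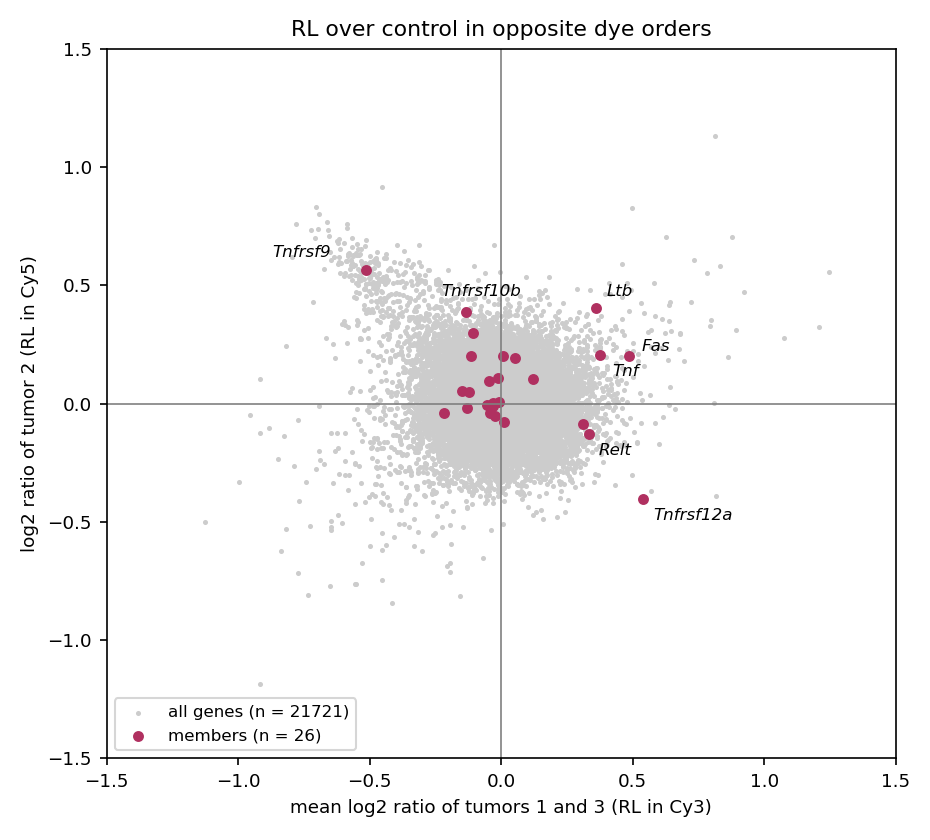
Each grey point is 1 of 21721 genes and each red point 1 of 26 members, with the mean log2 ratio of tumors 1 and 3 across and that of tumor 2 upward (1 gene lies outside the axes). Fas, Ltb and Tnf lie in the upper right quadrant, above 0 in both dye orders. Tnfrsf9 and Tnfrsf12a lie in opposite corners, where tumor 2 has the other sign and tumor and dye order cannot be told apart.

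The remaining receptors without a death domain had mean ratios from −0.08 for Tnfrsf18 to 0.18 for Relt, leaving Tnfrsf9 aside. Tnfrsf18 and Tnfrsf4 are costimulatory receptors of T cells and neighbours on chromosome 4. Tnfrsf4 had a mean of 0.07, with tumor 1 at −0.17 and tumors 2 and 3 at 0.20 and 0.19. The decoy receptors Tnfrsf22 and Tnfrsf23, which bind TRAIL in mice, had means of −0.02 and 0.03. They are neighbours on chromosome 7 with similar sequences, and whether their probes share targets was not tested. The second probe of Tnfrsf22 had ratios of −0.07, 0.23 and 0.10 where the probe used had 0.11, −0.01 and −0.17, so probes of 1 gene differed in sign in all 3 tumors. In total 5 members had more than 1 probe that passed, and none of them was called when the mean over its probes was used.

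The level of a member in a tumor was taken as the mean log2 intensity of both dyes. The median range of these levels over the 3 tumors was 0.51 for the members and 0.27 for all genes. It exceeded 1 for 4 members, beside 7.39% of all genes. These were Fas, with 10.53 in tumor 2 and 8.89 in the lowest tumor, tumor 1, Tnfrsf19, with 8.41, 7.02 and 7.26 in tumors 1, 2 and 3, Tnf, with 7.70, 7.80 and 9.03, and Tnfrsf23, with 10.58, 10.82 and 11.80. Tumor 2 was thus the high one for Fas, tumor 1 for Tnfrsf19, and tumor 3 for Tnf and Tnfrsf23. With 1 array per tumor these differences were not tested. Tnfrsf10b was the most even, with levels of 11.03, 10.97 and 10.99.

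Among the genes that work downstream of the receptors, the TRAF adaptors and cellular inhibitors of apoptosis had the highest median of the pathway lists. All 9 listed genes were tested. With limma 0 were past the adjusted threshold, and 4 were higher at an unadjusted p under 0.05 and 0 lower. With a dye term 4 were called higher and 0 lower, and by rank product 2 (Traf1 and Traf2) and 0. The shares of all genes placed higher were 3.5% by unadjusted p, 0.548% with a dye term and 0.17% by rank product. The median of the list was 0.10, beside −0.0019 over all genes. Traf1, an adaptor induced by NF-κB, had ratios of 1.14, 0.31 and 0.65, with a mean of 0.70 (SE 0.13) and an adjusted p of 0.227 with limma and 4.09e-05 with a dye term. Traf2, which carries the signal of most receptors without a death domain, had ratios of 0.83, 0.18 and 0.56. Its adjusted p was 0.298 with limma and 0.000972 with a dye term. Traf3, an inhibitor of the non-canonical NF-κB pathway, had ratios of 0.43, 0.37 and 0.33, the most even of the 4 genes called with a dye term (adjusted p = 0.211 with limma and 0.00413 with a dye term). Birc3, a ubiquitin ligase that binds Traf2, had ratios of 0.66, 0.51 and 0.16 (adjusted p = 0.323 with limma and 0.00162 with a dye term). All 4 were brighter in the RL culture of each tumor. Birc2, the paralog of Birc3, had the lowest mean of the list at −0.04. Earlier results of these data were known when this list was drawn up, so its direction is not independent evidence.

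Of 12 listed death domain adaptors and caspases, 11 were tested, and Edaradd was well above background in 0 channels. None was called by limma with or without a dye term or by rank product. By unadjusted p 0 were higher and 1 was lower, beside 3.5% and 3.58% of all genes. The median was −0.02. The highest mean was that of Mlkl, which executes necroptosis, at 0.17, and the lowest that of Bid, a link from caspase-8 to mitochondria, at −0.25. Among the genes for ligand and receptor shedding, all 9 were tested and the median was 0.02. With limma 0 were called, 0 were higher and 1 was lower by unadjusted p, and 0 were called by rank product. With a dye term, which called 0.548% of all genes higher and 0.709% lower, 0 of the list were higher and 1 was lower. This was Timp3, an inhibitor of the TNF-releasing protease Adam17, with ratios of −0.41, −0.35 and −0.32, a mean of −0.36 (SE 0.07) and an adjusted p of 0.227 with limma and 0.00647 with a dye term. Adam17 itself had a mean of 0.10, and the highest mean of the list was 0.14 for Rhbdf2, which Adam17 needs to mature. Of the family genes left outside the members, RANK (Tnfrsf11a), RL (Tnfsf11), osteoprotegerin (Tnfrsf11b) and Tnfrsf26, none was called in either fit, and their means ran from −0.23 for Tnfrsf11b to 0.07 for Tnfsf11.

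The calls of the dye-term fit depended on the processing. In 8 versions of this fit, of which 7 were chosen after the data had been seen, the ratio ran from 0.34 to 0.41 for Fas, with an adjusted p under 0.05 in 4 versions. For Ltb it ran from 0.38 to 0.73, also with 4 versions under 0.05 and an adjusted p from 0.00615 to 0.550. Tnf was under 0.05 in 0 of the 8, with ratios from 0.29 to 0.42. Traf1 was under 0.05 in 6, and Traf2, Traf3, Birc3 and Timp3 in 5. Some of the 8 versions leave the ratio itself as it was and change the test alone. With the processed signals of the scanner software, which kept no gene of the array past the threshold, none of them was called.

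**Figure D5:**
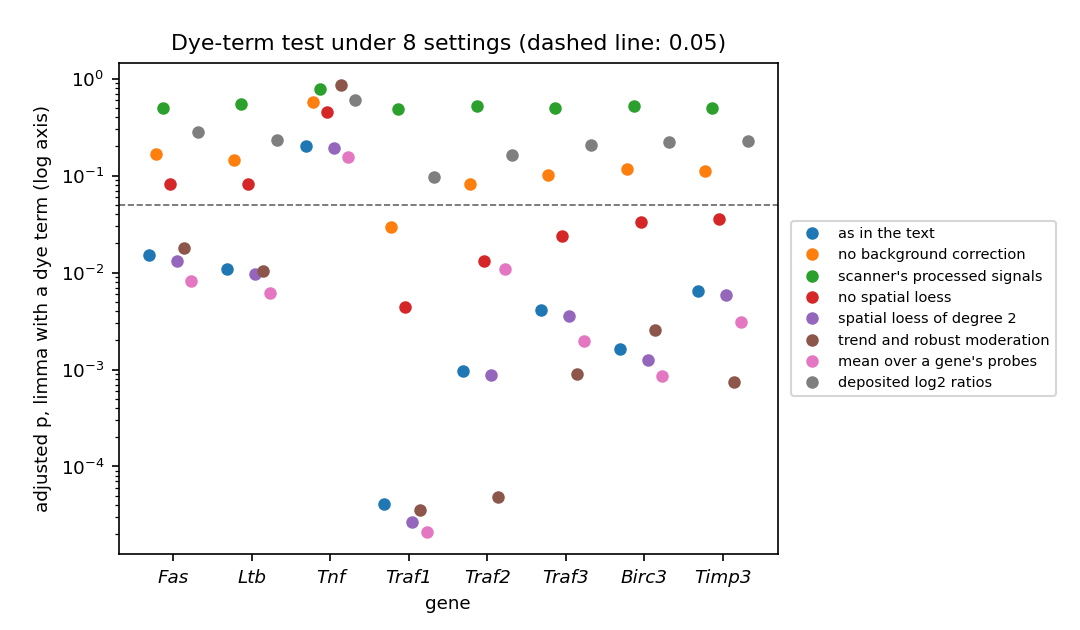
Points are the adjusted p of the RL term from limma with a dye term under 8 settings, on a log axis with a dashed line at 0.05. Fas and Ltb lie below the line in 4 settings, Tnf in 0 and Traf1 in 6.

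The cell types of the cultures were checked by their markers. All 12 epithelial markers were tested and detected in all 6 channels, as is known of mammary tumor tissue, with 0 called in either fit and a median of −0.02, and 0.16, −0.17 and −0.07 in tumors 1, 2 and 3. Krt18, the brightest of them, had ratios of −0.73, 0.43 and −0.70, with tumor 2 on the other side of 0 from the tumors of the other dye order. All 8 fibroblast markers were also tested, with 0 called and a median of −0.05. Their medians in tumors 1, 2 and 3 were −0.29, 0.14 and −0.05. In tumors 1 and 2 these were opposite in sign to the epithelial medians. Those 2 tumors differ in dye order, so tumor and dye order cannot be told apart there. Cy5 was the brighter dye in all 3 tumors for 4 fibroblast and 1 epithelial markers, against 19.5% of all genes. Cy3 was the brighter one for 0 and 4, against 15.2%. With a dye term the medians were −0.0036 for the fibroblast and −0.07 for the epithelial markers. All 5 B cell markers were well above background in 0 channels. Of the members known from B cells, Tnfrsf17 was detected in 0 channels, Tnfrsf13c in part and Tnfrsf13b in all 6. Of 9 T cell markers, 4 were tested (Cd3e, Cd4, Lck and Cd28), with a median of −0.02, while Cd3d, Cd3g, Cd2 and Cd8a were well above background in 0 channels. Of the members known from T cells, Cd27 and Cd40lg were likewise detected in 0 channels, whereas Tnfrsf4, Tnfrsf9 and Tnfrsf18 were detected in all 6. Of 5 NK cell markers, Prf1 was tested, with a mean of 0.13, and the other 4 were detected in 0 channels. Of 5 neutrophil markers, 2 were tested, with a median of 0.0095, and of 5 endothelial markers 2, with a median of −0.0052. The macrophage markers had a median of 0.03, and the lowest mean was −0.23 for C1qa. No marker of these cell types was past the adjusted threshold with limma, with or without a dye term, or by rank product. At an unadjusted p under 0.05 with limma, 2 of 9 macrophage markers and 1 of 8 fibroblast markers were lower and 0 markers higher. The shares of all genes at this threshold were 3.58% lower and 3.5% higher. The part of any of these cell types in the ratios of the members was not tested.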

How the data were processed

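The authors read the arrays with Agilent Feature Extraction 10.7.3.1 and deposited the median intensity of each spot and its local background per dye, together with processed intensities and log10 ratios of Cy5 over Cy3. A further deposited table holds their normalized log2 ratios. Set against the values computed here over 59305 spots, those log2 ratios had Pearson's r of −0.885, 0.874 and −0.881 in tumors 1, 2 and 3 and were thus Cy5 over Cy3, with medians of 0.0024, −0.0011 and 0.00069. Their slopes were −1.40, 1.59 and −1.49. The study names normexp for the background correction and gives no offset. They served as an alternative after turning tumors 1 and 3.

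Median intensities were corrected with normexp (offset 50) in limma 3.58.1 under R 4.3.3, normalized by intensity-dependent and spatial loess (span 0.1) within arrays and by Aquantile between arrays, and turned to RL over control. Outlier spots (204, 195 and 223) and 3671 control spots were left out, and no member had a saturated spot. Of 55681 probes, 28026 were given gene symbols by their accessions in RefSeq (GRCm38.p6). A probe had to be well above background in all 3 control or all 3 RL channels, and the brightest such probe stood for its gene. The ratio was tested against 0 with lmFit and eBayes, adjusted by Benjamini-Hochberg over all genes. RL and control cultures were paired by tumor, as the labels give, through their common array. The rank product used 1000 permutations and seed 1. The programs were tested on simulated data.

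The members and lists were chosen with earlier results of these data known. Values by tumor are given for members called in limma or its dye-term fit, for those with the same sign in all 3 tumors, for Tnf, Ltb, Tnfrsf1a, Tnfrsf1b, Ltbr, Fas, Cd40, Tnfrsf12a and Tnfrsf10b, and for members detected in 1 condition alone. Tnfrsf4, Tnfrsf9, Tnfrsf21, Tnfrsf22, Tnfrsf23, Tnfrsf25, Relt and Tnfsf15, and the markers Cd14, Ptprc and Krt18, were named outside this rule, after their values were seen. Of the pathway lists, values by tumor are also given for the genes called with a dye term (Traf1, Traf2, Traf3, Birc3 and Timp3). Alternatives were a dye term, other moderation, rank product, unadjusted p, other background correction, normalization, filters and probe rules, the deposited log2 ratios, unpaired channels, and each tumor left out.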

Additional observations from a re-analysis of the deposited data

How the results depend on the processing

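The number of members called was 0 higher and 0 lower in the analysis as reported, and 3 higher by unadjusted p, 1 by rank product and 2 with a dye term. The dye term called 2 also with a spatial loess of degree 2, with an intensity trend and robust moderation, or with the mean over the probes of a gene. These 3 versions, and the 4 others with a dye term, were chosen after seeing the data. Leaving out a tumor gave between 0 and 6 members higher and between 0 and 1 lower. Every other alternative called 0 members.

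The counts over all genes, 1 higher and 5 lower as reported, were 119 and 154 with a dye term, 14 and 29 under robust moderation with an intensity trend, 37 and 51 by rank product, 762 and 778 by unadjusted p, 6 and 12 without background correction, 0 and 0 with processed signals or with arrays centred on their median, 0 and 3 without a filter and with detection required in all 6 channels, 1 and 3 with the mean over probes, and 2 and 7 with the deposited log2 ratios. With no pairing by tumor they were 0 and 0. Among the added versions with a dye term they were 14 and 32 without background correction, 0 and 0 with processed signals, 43 and 67 without spatial loess, 125 and 161 with degree 2, 114 and 133 with trend and robust moderation, 135 and 179 with the mean over probes, and 4 and 15 with the deposited log2 ratios. Leaving out a tumor gave 0 to 544 higher and 1 to 909 lower.

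The median of the members, −0.0024 as reported, was 0.035 with a dye term. With a dye term in each case, it was 0.036 without spatial loess, 0.034 with degree 2, 0.035 with trend and robust moderation, 0.038 with the mean over probes and 0.035 with the deposited log2 ratios. Without a dye term, the last 3 of these gave −0.0024, 0.013 and 0.0078. With arrays centred on their median and no loess it was −0.053, where the median of all genes was −0.11. It ran from −0.027 to 0.035 when a tumor was left out.

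Under median centring, Tnfsf9 (−0.023), Ltbr (−0.13) and Tnfrsf10b (−0.13) lay below 0, but the median of all genes moved to −0.11. With that shift, a sign below 0 there cannot be read as a turn of these genes. With processed signals Ltbr was below 0 (−0.0016), and the cause was not tested. When a tumor was left out, Tnfrsf12a ran from −0.065 to 0.54, Ltbr from −0.014 to 0.068 and Tnfrsf10b from −0.13 to 0.17. Fas (0.29 to 0.46), Ltb (0.30 to 0.73) and Tnf (0.20 to 0.48) had these ranges over the alternatives that kept every tumor, many of which change the test or the filter and leave the ratio itself as it was. Without tumor 1, Tnf was 0.083, Tnfrsf19 moved from −0.16 to −0.069 and Tnfrsf1a from −0.093 to −0.027. Median centring, with its shift of all genes, gave −0.30 for Tnfrsf19, −0.25 for Tnfrsf1a, 0.010 for Tnfrsf12a and 0.0056 for Tnfrsf1b. With 3 tumors and an unbalanced dye order, small ratios could not be resolved. Ratios of dim probes near background, such as those of Ltb, Lta and Tnfsf15, may be compressed, which was not tested gene by gene.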
